A study of Mus musculus with 24 samples.

Results

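The genes described here are the members of the mouse proteasome gene families Psma, Psmb, Psmc, Psmd, Psme and Psmg. They were chosen by symbol (the family name followed by a digit, pseudogene symbols left out) and by a mean of at least 1 FPKM over 24 RNA sequencing libraries. FPKM is a fragment count scaled by transcript length and by the library's mapped total, so it compares levels between genes per length. Of 23991 symbols, 49 matched and 48 reached that mean. The remaining match, Psmb11, a catalytic subunit known from the thymus, had a mean of 0.0202 FPKM and at most 0.0762 FPKM in any library.

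The proteasome is the protease of the cytosol and nucleus that degrades proteins marked with ubiquitin. Its barrel-shaped 20S core is built from alpha rings and beta rings, and Psmb6, Psmb7 and Psmb5 encode the beta subunits that cut (beta1, beta2 and beta5). The 19S cap on the barrel recognises, unfolds and feeds in substrates through a ring of ATPases (Psmc genes) and a lid and base of non-ATPase subunits (Psmd genes). Under interferon and in many immune cells the cutting subunits are replaced by Psmb9, Psmb10 and Psmb8, which gives the immunoproteasome, and the activator PA28 (Psme1 and Psme2) is added. The immunoproteasome is known for making peptides that fit major histocompatibility complex class I molecules, and cells of the blood lineage are known to hold it without infection.

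The libraries came from bone marrow of C57BL/6 mice, sorted by flow cytometry into 2 populations. LSK cells (negative for lineage markers, positive for both Sca1 and cKit) include the blood stem cells and the earliest progenitors. GMP are granulocyte-macrophage progenitors, which go on to make neutrophils and monocytes. Each population had 4 genotypes with 3 libraries each, 8 groups in all. WT libraries were wild type. ITD libraries carried Flt3-ITD, an internal tandem duplication in the receptor tyrosine kinase Flt3 that is common in acute myeloid leukaemia. IRE1_KO libraries were labelled Ern1(fl/fl)-VavCre, in which Cre under the Vav promoter deletes floxed Ern1 in blood cells, while cells outside that lineage keep it. IRE1_KO_ITD libraries carried Ern1(fl/fl)-VavCre together with Flt3-ITD. Ern1 encodes IRE1alpha, a sensor of protein folding stress in the endoplasmic reticulum. No treatment was given in the labels, the animals' ages are not in them, and they do not say whether each library is a separate animal, so p-values measure only the spread between these libraries.

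By role, the 48 members were 7 alpha subunits, 7 constitutive beta subunits, 6 ATPases and 11 non-ATPase subunits of the 19S cap, 5 immunoproteasome genes (Psmb8, Psmb9, Psmb10, Psme1 and Psme2), 7 assembly chaperones and 2 other activators (Psme3 and Psme4). The remaining 3 stand outside these roles. Psmc3ip, a recombination factor, and Psma8, the alpha subunit of germ cells, carry family symbols. Psme2b is a retrocopy of Psme2, and the ratio of Psme2b to Psme2 lay between 0.396 and 0.442 in every library, so reads shared by the pair leave the level of both uncertain. The first 4 of these roles make up the 31 constitutive subunits used below.

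Promoter sequences of 4 members are shown because the results turn on them: Psmb9 and Psmb8, whose levels moved with genotype in GMP, Psmb10, which joins the same particle but was not called with them in GMP, and Psmb5, the constitutive partner of Psmb8. Each is the 300 bases from 250 before to 50 after the gene start, from RefSeq on build GRCm38.p6, written 5′ to 3′ on the strand of the gene. The windows are chr17:34187281-34187580 on the minus strand (Psmb9), chr17:34197945-34198244 on the plus strand (Psmb8), chr8:105938343-105938642 on the minus strand (Psmb10) and chr14:54617946-54618245 on the minus strand (Psmb5). Capitals mark a match to any of the 4 motifs named in the next paragraph.
Psmb9: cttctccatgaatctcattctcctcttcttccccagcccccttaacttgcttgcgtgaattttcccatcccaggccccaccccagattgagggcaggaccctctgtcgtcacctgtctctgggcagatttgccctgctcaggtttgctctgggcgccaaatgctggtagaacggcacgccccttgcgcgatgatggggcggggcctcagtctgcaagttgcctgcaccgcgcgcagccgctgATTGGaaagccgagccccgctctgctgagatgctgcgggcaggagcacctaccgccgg
Psmb8: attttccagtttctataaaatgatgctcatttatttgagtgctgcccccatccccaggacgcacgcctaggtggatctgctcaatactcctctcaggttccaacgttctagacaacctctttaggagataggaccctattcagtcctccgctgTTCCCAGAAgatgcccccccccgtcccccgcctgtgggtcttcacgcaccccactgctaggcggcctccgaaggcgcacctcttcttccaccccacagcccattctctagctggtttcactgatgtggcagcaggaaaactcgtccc
Psmb10: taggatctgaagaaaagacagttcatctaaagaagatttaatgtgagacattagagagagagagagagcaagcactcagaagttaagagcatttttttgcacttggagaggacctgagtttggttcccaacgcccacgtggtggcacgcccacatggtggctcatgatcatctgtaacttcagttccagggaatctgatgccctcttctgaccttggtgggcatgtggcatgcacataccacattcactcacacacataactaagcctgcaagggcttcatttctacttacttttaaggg
Psmb5: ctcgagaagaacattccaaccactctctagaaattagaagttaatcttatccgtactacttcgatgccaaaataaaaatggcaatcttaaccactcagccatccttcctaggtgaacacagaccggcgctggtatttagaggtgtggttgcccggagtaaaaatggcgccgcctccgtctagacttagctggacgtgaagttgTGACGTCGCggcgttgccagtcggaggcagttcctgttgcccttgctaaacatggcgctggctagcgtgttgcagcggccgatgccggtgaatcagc

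Both strands were searched for GAAANNGAA (a core of the interferon-stimulated response element), TTCNNNGAA (the gamma-activated site bound by STAT factors), TGACNNNGC (a core of the antioxidant response element) and CCAAT. The gamma-activated site letters stood in the Psmb8 window at -97 to -89 as TTCCCAGAA, and in 8.3% of all 32851 promoters of the table. CCAAT stood in the Psmb9 window on the minus strand at -8 to -4, and in 37.4% of all promoters. TGACNNNGC stood in the Psmb5 window, in 4 of 25 constitutive subunits with a promoter (Psmc6, Psmd12, Psmb5 and Psmb6), in 0 of 5 immunoproteasome genes, and in 12.4% of all promoters. The Psmb10 window held none of the 4 motifs. GAAANNGAA stood in 1 of 5 immunoproteasome genes (Psme1), in 4 of 25 constitutive subunits and in 8.56% of all promoters, counts that describe these windows only. In all, 40 of 48 members had a promoter in the table. Members were counted by gene, with a match in any of its promoters. The shares of all are by promoter, with 32851 promoters for 27025 genes, so the units differ. On chromosome 17, Psmb9 (34182030 to 34187330) and Tap1 (34187556 to 34197225), a peptide transporter of class I processing, lie head to head on opposite strands, and their promoter windows share 275 bases, and Psmb8 (34198195 to 34201454) and Tap2 (34204479 to 34216321) follow. Psmb10 is on chromosome 8, and Psme1, Psme2 and Psmb5 are on chromosome 14.

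Libraries of all groups were near each other in depth: relative depth, read from the steps between low values, ran from 0.919 to 1.29. FPKM summed over all genes to 510361 to 571899 in LSK and 567255 to 673177 in GMP. A difference in FPKM thus need not be one in share of the total. The defining LSK genes summed to 673 to 980 FPKM in LSK and 164 to 296 FPKM in GMP, and the defining GMP genes to 1039 to 3418 FPKM in LSK and 18848 to 31627 FPKM in GMP, so each population carried its label. Ern1, the targeted gene, was not lower in libraries with the IRE1_KO label: its mean was 4.34 FPKM in WT and 7.62 FPKM in IRE1_KO LSK, and 9.06 and 20.6 FPKM in GMP. A value over the whole gene checks nothing about the deleted part, so those groups are called by their labels. Column headers mark the IRE1_KO LSK group, and no other, with a 1 ng tag, and there Mir6236 held 0.175% to 0.904% of all FPKM, while its share in the remaining LSK groups was 4.41% to 6.24%. Genotype and tag cannot be told apart there, and GMP was not compared with LSK in IRE1_KO. Read from Xist and Y chromosome genes, every ITD library was female, while WT, IRE1_KO and IRE1_KO_ITD libraries were of mixed sex.

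Comparisons below that name the same group share its libraries, so their values are set side by side only. Proteasome transcripts were abundant in both populations. The 48 members together held 1.13% to 1.57% of all FPKM of a library. Median levels over the members of a role were 296 FPKM for alpha subunits (148 to 497), 279 FPKM for constitutive beta subunits (137 to 417), 133 FPKM for ATPases (82.9 to 163), 117 FPKM for non-ATPase cap subunits (67.7 to 151) and 65.97 FPKM for assembly chaperones (15.6 to 99.7). The immunoproteasome genes had a median of 227 FPKM, below both core medians, from Psmb10 at 111 FPKM, which is lower than any core subunit, to Psmb8 at 437 FPKM. In the order of group means, Psmb8 was highest in ITD LSK (587 ± 39.6 FPKM, SD, n = 3) and lowest in IRE1_KO GMP (310 ± 30.9 FPKM, SD, n = 3), just below WT GMP (330.0 ± 1.92 FPKM). The 5 groups between, IRE1_KO LSK (462 ± 47.7 FPKM), ITD GMP (459 ± 55.1 FPKM), IRE1_KO_ITD GMP (455 ± 9.27 FPKM), WT LSK (447 ± 15.9 FPKM) and IRE1_KO_ITD LSK (446 ± 16.5 FPKM), did not differ from their neighbours in that order beyond their spread (SD, n = 3).

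**Figure D1:**
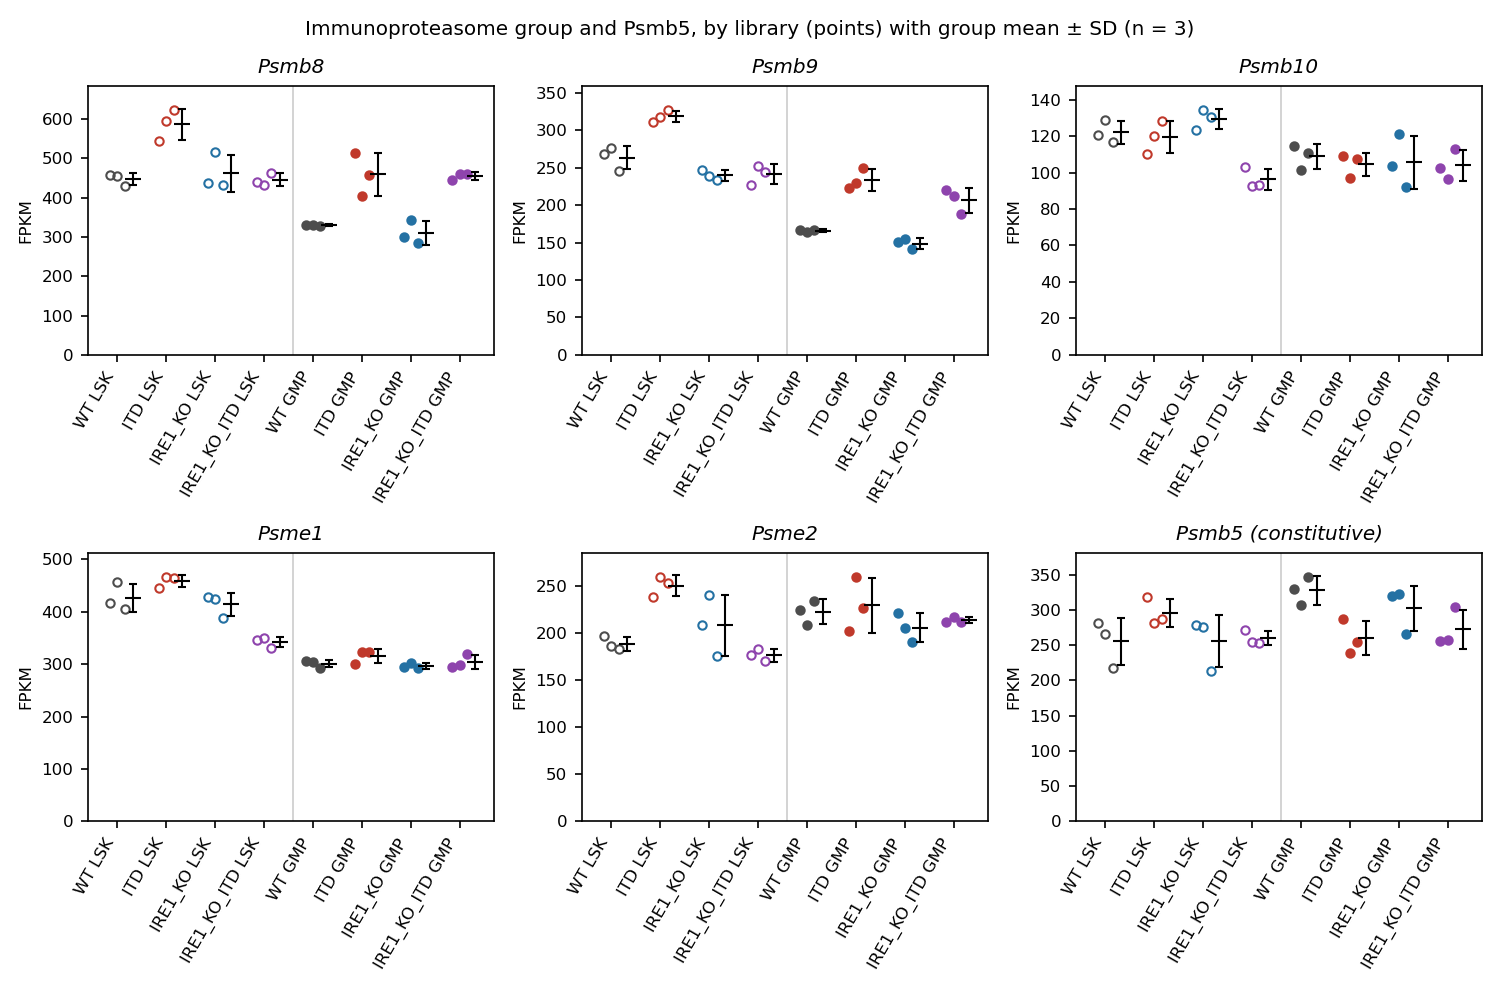
Level in FPKM of the 5 immunoproteasome genes and of the constitutive subunit Psmb5 in each of the 24 libraries, one panel per gene. Open points are LSK and filled points GMP, with the mean and SD of each group (n = 3). Psmb8 and Psmb9 in GMP are higher in all 6 libraries with Flt3-ITD than in the 6 without it, while Psmb10 and Psme1 in GMP overlap between those groups.

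Normal GMP held more constitutive proteasome and less immunoproteasome transcript than normal LSK cells. In WT, 17 of 31 constitutive subunits were higher in GMP and 0 were lower, while Psmb8, Psmb9 and Psme1 were lower. Over all genes tested in this comparison, 19% were called higher and 31.3% lower (limma on log2(FPKM + 1), adjusted p below 0.05). The median difference in log2(FPKM + 1) was 0.28 over the constitutive subunits, -0.44 over the immunoproteasome genes and -0.11 over all genes.

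Within the core, 5 of 7 alpha subunits and 3 of 7 constitutive beta subunits rose. Psma7, an alpha subunit, was at 431, 421 and 380.3 FPKM in WT LSK and at 573, 567 and 544 FPKM in WT GMP. The groups did not overlap, and the log2 difference was 0.45 ± 0.08 (SE, limma adjusted p = 2.16e-04). Psmb2, a structural beta subunit, was at 395, 396 and 375 FPKM in WT LSK and at 495, 497 and 503 FPKM in WT GMP (log2 difference 0.36 ± 0.08, SE, limma adjusted p = 0.001). Psmb3, also structural, rose by 0.47 ± 0.10 (SE, limma adjusted p = 0.0011). Among the cutting subunits, Psmb5 rose by 0.37 ± 0.12 (SE, limma adjusted p = 0.0142), and Psmb6 and Psmb7 did not pass, at -0.01 and 0.17.

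In the cap, 4 of 6 ATPases and 5 of 11 non-ATPase subunits rose. Psmc3, an ATPase, was higher by 0.35 ± 0.07 (SE, limma adjusted p = 5.12e-04). Psmd14, the deubiquitinase that strips ubiquitin from substrates, was at 103.0, 102.0 and 107 FPKM in WT LSK and 143, 142 and 139.9 FPKM in WT GMP. All 3 GMP libraries were above all LSK libraries (0.44 ± 0.11, SE, limma adjusted p = 0.00234). Psmd6, a lid subunit, had 0.44 ± 0.10 (SE, limma adjusted p = 0.00104) and Psmd3, the lowest of the constitutive values, -0.19. Psmd2, a scaffold of the cap base with the largest rise among the members, had 0.58 ± 0.15 (SE, limma adjusted p = 0.00252). Of the assembly chaperones, Psmd5 and Psmg3 rose and Psmg4 fell by 0.27 ± 0.09 on the log2 scale (SE, limma adjusted p = 0.0162), a call that ended without WT GMP replicate 3 and with median-ratio scaling (adjusted p = 0.122 to 0.433).

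The immunoproteasome genes went the other way. Psmb9, the immune beta1 subunit, was at 269, 276 and 246 FPKM in WT LSK and at 167, 164 and 167 FPKM in WT GMP. Its log2 difference was -0.66 ± 0.07 (SE, limma adjusted p = 2.5e-07), the most negative of the 48. Psme1, the PA28 alpha subunit, was at 417, 457 and 406 FPKM in WT LSK against 306, 304 and 294 FPKM in WT GMP (-0.50 ± 0.06, SE, limma adjusted p = 1.32e-06). Psmb8, the immune beta5 subunit, differed by -0.44 ± 0.09 (SE, limma adjusted p = 4.72e-04). These 3 calls held in all 13 alternatives. Psmb10 had -0.16 and Psme2 0.24, and neither passed. Tap1 had -1.05 in the same comparison. Alongside, 8 of 11 class I processing genes and 10 of 16 interferon response genes were lower in WT GMP, and 7 of 12 cell cycle genes were higher. Their part in the result was not tested, and in these bulk libraries fewer cells of a type and less RNA per cell cannot be told apart.

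The constitutive shift depended on scaling, in its size and in its calls. With quantile normalization, constitutive calls were 7 higher and 2 lower, and with median-ratio size factors 26 higher and 0 lower, while the immunoproteasome calls were 0 higher and 4 lower, and 1 higher and 3 lower.

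**Figure D2:**
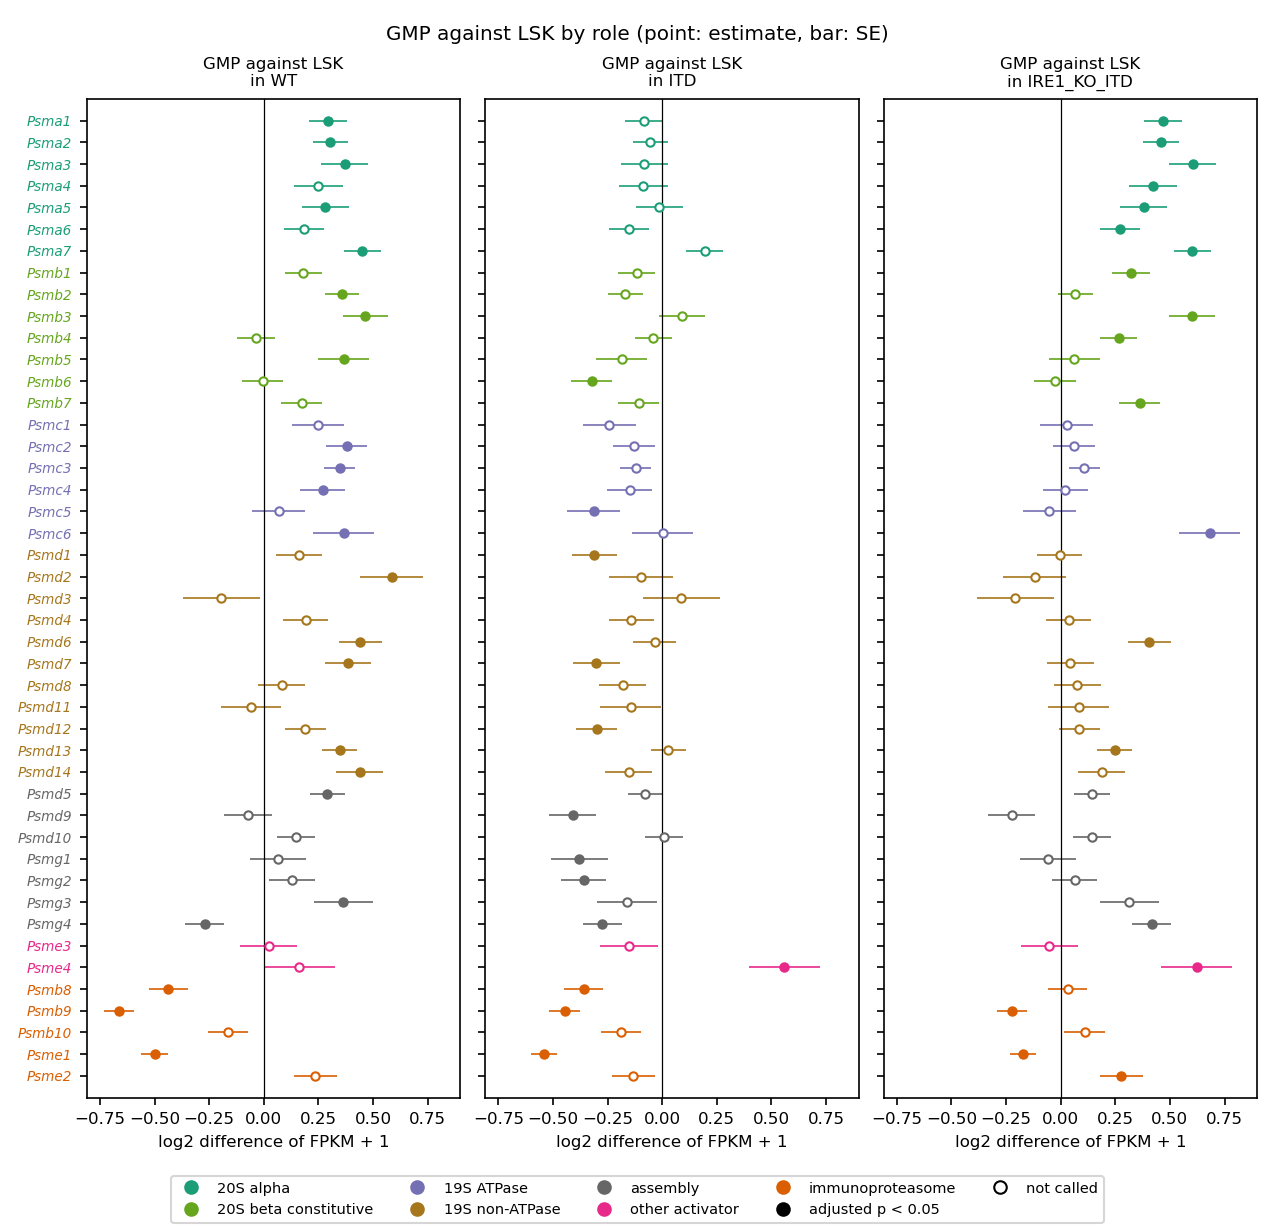
Difference in log2(FPKM + 1) between GMP and LSK for each member with a role, in WT, ITD and IRE1_KO_ITD, ordered and coloured by role, with bars of 1 SE and filled points at adjusted p below 0.05. In WT the constitutive points lie mostly right of 0 and Psmb8, Psmb9 and Psme1 left of it, and in ITD the constitutive points lie around or left of 0.

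In GMP, Flt3-ITD went with higher Psmb8 and Psmb9, and 0 of 31 constitutive subunits rose. Of the 48 members, 2 rose (Psmb8 and Psmb9) and 3 fell (Psmc3, Psmb2 and Psmc3ip) in ITD against WT, where 7.37% of all genes were called higher and 3.32% lower. No test here sets these counts, or the 0 of 31, apart from those shares of all genes. Psmb9 was at 167, 164 and 167 FPKM in WT GMP and at 222, 229 and 250.2 FPKM in ITD GMP. No ITD library reached down to a WT library, and the log2 difference was 0.49 ± 0.08 (SE, limma adjusted p = 0.0052), called in all 13 alternatives. Psmb8 was at 331, 331 and 328 FPKM in WT GMP and at 515, 405 and 459 FPKM in ITD GMP. All 3 ITD libraries were higher, with a wider spread than in WT, and the log2 difference was 0.47 ± 0.10 (SE, limma adjusted p = 0.0159). That call for Psmb8 ended in 5 of 13 alternatives (adjusted p = 0.05 to 0.0931): only the libraries compared, sex as a covariate, and without ITD GMP replicate 3, WT GMP replicate 2 or WT GMP replicate 3.

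The other immunoproteasome genes did not pass. Psmb10 was at 115, 101 and 111 FPKM in WT GMP and at 109, 97.1 and 107 FPKM in ITD GMP (-0.06, limma adjusted p = 0.745). Psme1 was at 299.8, 323 and 324 FPKM in ITD GMP, a log2 difference of 0.07 (limma adjusted p = 0.522). Psme2 was at 225, 209 and 235 FPKM in WT GMP and at 202, 259.9 and 227 FPKM in ITD GMP, a log2 difference of 0.04 (limma adjusted p = 0.831). The groups overlapped for Psmb10, Psme1 and Psme2.

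Most constitutive subunits stood below 0 in ITD against WT GMP, nearly all without passing. Of 31, 4 had a difference above 0, with a median of -0.19 against 0.07 over all genes. Over all 48 members, 18 had all ITD libraries below all WT libraries, as had 12.5% of all genes tested, and 4 had all ITD libraries above, as had 21.8%. Of the 31, 2 passed, and the value furthest above 0 was that of Psmd3 (0.58, not called). Psmc3 was at 185, 196 and 195 FPKM in WT and 161, 143 and 144 FPKM in ITD GMP, a difference of -0.36 ± 0.08 (SE, limma adjusted p = 0.0182). Psmb2 fell by 0.27 ± 0.07 on the log2 scale (SE, limma adjusted p = 0.0403), a call that ended in 10 of 13 alternatives, the replicate block among them. Neither Psmc3 nor Psmb2 held in the fit of the 6 libraries alone or with sex as a covariate, where constitutive calls were 0. The 3 cutting subunits were at -0.34 (Psmb5, adjusted p = 0.0734), -0.25 (Psmb6, adjusted p = 0.109) and -0.23 (Psmb7, adjusted p = 0.102) in limma. With median-ratio size factors 12 constitutive subunits were called lower, and without ITD GMP replicate 3, WT GMP replicate 2 or WT GMP replicate 3 the count over all members was 1 in each case, and 3 without WT GMP replicate 1.

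The same pair of genes rose when Flt3-ITD was compared within the libraries labelled IRE1_KO, a comparison that shares no library with the first. Psmb9 was at 150.3, 155 and 141 FPKM in IRE1_KO GMP and at 219.9, 213 and 188 FPKM in IRE1_KO_ITD GMP. The groups did not overlap, and the log2 difference was 0.47 ± 0.08 (SE, limma adjusted p = 0.0047). Psmb8 was at 299.8, 344 and 285 FPKM in IRE1_KO GMP and at 445, 459 and 462 FPKM in IRE1_KO_ITD GMP (0.56 ± 0.10, SE, limma adjusted p = 0.00551). Both calls held in all 13 alternatives. Psmb10 was at 103, 121 and 92.3 FPKM in IRE1_KO and 102, 96.6 and 113 FPKM in IRE1_KO_ITD GMP. Psme1 was at 295, 302 and 293 FPKM and 295, 299 and 319 FPKM in the same groups, and Psme2 at 221, 205 and 191 FPKM and 212, 218 and 212 FPKM. None of the 3 was called and all 3 overlapped between the groups. Over all members 4 rose and 0 fell here, where 8.47% of all genes were called higher and 4.5% lower, and that split turned with scaling: 2 rose and 5 fell with median-ratio size factors, and 3 rose and 3 fell with quantile normalization. The other 2 were Psma3, an alpha subunit (0.46 ± 0.13, SE, limma adjusted p = 0.0418), and Psmg4, a chaperone of core assembly (0.32 ± 0.09, SE, limma adjusted p = 0.044), and those 2 ended in 9 and 11 of 13 alternatives, Psmg4 with the replicate block among them. The count of 4 was 2 without any 1 of the 6 libraries other than IRE1_KO_ITD GMP replicate 3, and no test sets it apart from the 8.47% of all genes. Among constitutive subunits the lowest value was that of Psmc4, an ATPase (-0.36, not called). The constitutive median was 0.068 and changed sign with median-ratio size factors (-0.033).

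The difference of the Flt3-ITD effect between libraries with and without the IRE1_KO label in GMP passed for 0 members, where 0% of all genes were called higher and 0% lower, and 7 members were higher and 0 lower at an unadjusted p below 0.05. Constitutive values ran from -0.34 (Psmd3) to 0.62 (Psma3). For Psmb8 and Psmb9 the difference was 0.09 ± 0.14 (SE, limma adjusted p = 0.791) and -0.02 ± 0.11 (SE, limma adjusted p = 0.957) on the log2 scale.

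Set against the constitutive partner, the immune subunit of 2 of the 3 cutting pairs took a larger part in GMP with Flt3-ITD. Psmb8 made up 50.2% ± 1.65 (SD, n = 3) of the sum of Psmb8 and Psmb5 in WT GMP, 50.6% ± 1.90 (SD, n = 3) in IRE1_KO GMP, 63.8% ± 0.84 (SD, n = 3) in ITD GMP and 62.6% ± 2.06 (SD, n = 3) in IRE1_KO_ITD GMP. The 6 libraries without Flt3-ITD and the 6 with it did not overlap. In LSK the share of Psmb8 was 63.7% ± 2.31 in WT, 66.5% ± 2.94 in ITD, 64.4% ± 2.95 in IRE1_KO and 63.1% ± 1.43 in IRE1_KO_ITD (SD, n = 3), with overlapping ranges. The ranges of GMP with Flt3-ITD and of WT LSK overlapped as well. Psmb9 made up 34.8% ± 0.73 and 35.2% ± 1.88 of the sum of Psmb9 and Psmb6 in WT and IRE1_KO GMP, and 47.3% ± 3.09 and 43.7% ± 1.67 in ITD and IRE1_KO_ITD GMP (SD, n = 3), again with no overlap. In LSK the share of Psmb9 was also higher with Flt3-ITD, at 45.7% ± 0.19 in WT against 49.4% ± 2.27 in ITD and 43.0% ± 3.22 in IRE1_KO against 47.1% ± 1.65 in IRE1_KO_ITD (SD, n = 3). The ranges did not overlap in either pair, at 45.6% to 45.9% against 46.8% to 51.0%, and 39.2% to 44.97% against 45.3% to 48.5%. The IRE1_KO group of the second pair carries the 1 ng tag, which cannot be told apart from Flt3-ITD there. Psmb10 made up 40.7% ± 1.44 to 43.7% ± 3.96 of the sum of Psmb10 and Psmb7 in the 4 GMP groups (SD, n = 3), which overlapped. In LSK the share of Psmb10 was 46.5% ± 0.65 in WT, 45.1% ± 2.98 in ITD and 45.5% ± 2.53 in IRE1_KO_ITD, which overlapped, and 54.5% ± 4.40 in IRE1_KO (SD, n = 3), the group with the 1 ng tag, whose libraries were all above those of the other 3 groups. The constitutive partners Psmb6 and Psmb7 are the other side of those shares. Psmb6 was at 319.8, 325 and 294 FPKM in WT, 354, 305 and 322 FPKM in ITD, 302, 371 and 289 FPKM in IRE1_KO and 274, 269 and 269.9 FPKM in IRE1_KO_ITD LSK. In GMP Psmb6 was at 306, 303 and 326 FPKM in WT, 284, 250.3 and 249.8 FPKM in ITD, 265, 314 and 246 FPKM in IRE1_KO and 274, 262 and 262 FPKM in IRE1_KO_ITD, so its 3 ITD libraries were below all WT libraries and those of the IRE1_KO pair overlapped. Psmb7 was at 143, 146 and 133 FPKM in WT, 155, 137 and 145 FPKM in ITD, 126, 105 and 94.7 FPKM in IRE1_KO and 115, 125 and 107 FPKM in IRE1_KO_ITD LSK, and the IRE1_KO libraries were the lower ones against WT. In GMP Psmb7 was at 157, 156 and 163 FPKM in WT, 126, 151 and 128 FPKM in ITD, 142, 146 and 133 FPKM in IRE1_KO and 155, 152 and 139 FPKM in IRE1_KO_ITD. These shares are of transcript level and say nothing of assembled particles.

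**Figure D3:**
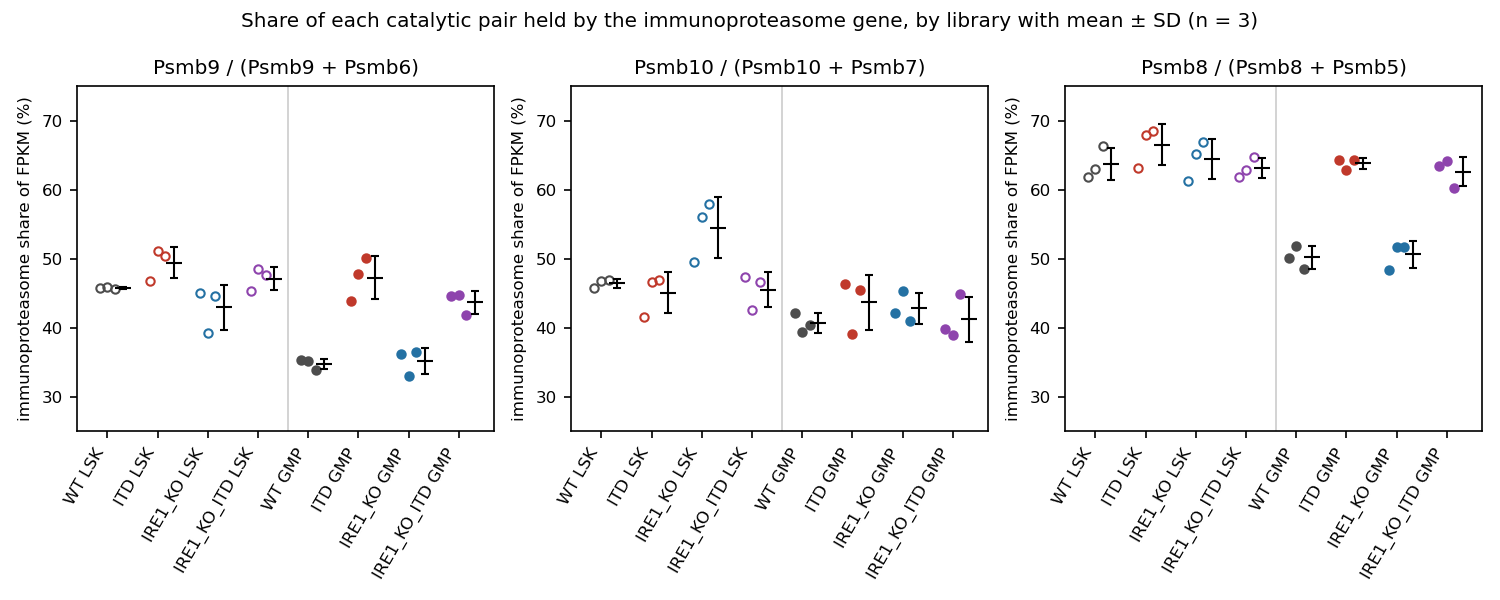
Share in percent of FPKM held by the immune subunit in each cutting pair, by library, open points for LSK and filled points for GMP, with the mean and SD of each group (n = 3). The share of Psmb8 in GMP is 48.4% to 51.9% in the 6 libraries without Flt3-ITD and 60.3% to 64.3% in the 6 with it, and the share of Psmb10 overlaps between those groups.

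Genes that act with the immunoproteasome moved in the same GMP libraries. Of 11 class I processing genes, 5 rose and 0 fell in ITD against WT GMP. Tap1, which shares its promoter region with Psmb9, was at 28.0, 29.4 and 29.9 FPKM in WT and at 49.5, 54.3 and 62.2 FPKM in ITD GMP, a log2 difference of 0.90. H2-D1 and H2-K1, class I heavy chains, had 0.91 and 0.75, Tap2 had 0.53, and Nlrc5, the class I transactivator, had 0.88. In IRE1_KO_ITD against IRE1_KO GMP, 5 of 11 rose and 0 fell, among them Nlrc5 (1.01), H2-K1 (0.69), H2-D1 (0.68), Tap1 (0.55) and B2m (0.51), the class I light chain.

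Markers of the sorted population and of other cell types moved with genotype too. The defining GMP genes were lower for 5 of 7 in ITD against WT GMP, and summed to 30130 to 31627 FPKM in WT and 18848 to 22543 FPKM in ITD, without overlap. In IRE1_KO_ITD against IRE1_KO GMP they were lower for 2 of 7, from 25537 to 29434 FPKM to 19003 to 22059 FPKM, also without overlap. In ITD against WT GMP, 7 of 10 dendritic and monocyte markers tested were higher and 0 lower, and the list summed to 3979 to 4198 FPKM in WT and 3917 to 7318 FPKM in ITD, with no gene of the list at 0 in a whole group. In IRE1_KO_ITD against IRE1_KO GMP, where Psmb8 and Psmb9 rose as well, 1 of 10 was higher, with sums of 3324 to 3817 and 2796 to 5411 FPKM. Erythroid markers were lower for 7 of 9 and B cell markers for 5 of 11 in the first of these comparisons, and for 8 of 9 and 10 of 11 in the second, with 0 higher. T and NK markers were lower for 1 of 3 and for 0 of 3. Late neutrophil markers were called for 0 of 9 in the first, with sums of 41814 to 61670 FPKM in WT and 2336 to 92943 FPKM in ITD GMP, and lower for 2 of 9 in the second, with sums of 17259 to 83000 and 1418 to 14752 FPKM. Interferon response genes were higher for 1 of 15 and lower for 0 in ITD against WT GMP, and higher for 1 and lower for 1 in IRE1_KO_ITD against IRE1_KO GMP. The part of these genes in the rise of Psmb8 and Psmb9 was not tested.

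In LSK cells, ITD libraries held more transcript of 5 subunits of the 19S cap and of 3 immunoproteasome genes. Of the 48 members 14 rose and 0 fell in ITD against WT, where 14.9% of all genes were called higher and 7.27% lower. Of the 31 constitutive subunits 7 rose, 30 had a difference above 0, and the median was 0.21 against 0.08 over all genes. No test here sets the 7 of 31 apart from the 14.9% of all genes.

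By role, 5 of 11 non-ATPase cap subunits rose, against 2 of 7 alpha subunits, 0 of 7 constitutive beta subunits and 0 of 6 ATPases. Psmd1, a large scaffold of the cap base, was at 57.8, 56.2 and 66.6 FPKM in WT LSK and at 86.9, 81.4 and 87.5 FPKM in ITD LSK. The groups did not overlap, and the difference was 0.50 ± 0.08 (SE, limma adjusted p = 0.0028). Psmd7, a lid subunit that pairs with Psmd14, was at 129, 105 and 106 FPKM in WT and at 168, 155 and 154 FPKM in ITD LSK (0.49 ± 0.09, SE, limma adjusted p = 0.00428). Psme3, the PA28 gamma activator of the nucleus, was at 80.9, 73.2 and 72.0 FPKM in WT and at 104, 108 and 111 FPKM in ITD LSK (0.51 ± 0.10, SE, limma adjusted p = 0.00582). Psmd12, a lid subunit, rose by 0.38 ± 0.08 (SE, limma adjusted p = 0.0102). The lowest constitutive value was that of Psmb4, a beta subunit (-0.06). Psmd1, Psmd7, Psme3 and Psmd12 were the 4 of 14 calls that held in all 13 alternatives.

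Psmb8, Psmb9 and Psme2 rose as well. Psmb8 was at 457, 455 and 429 FPKM in WT LSK and at 544, 596 and 622 FPKM in ITD LSK (0.39 ± 0.09, SE, limma adjusted p = 0.0104). Psmb9 was at 269, 276 and 246 FPKM in WT and at 312, 318 and 327 FPKM in ITD LSK (0.27 ± 0.07, SE, limma adjusted p = 0.0197). Psme2, the PA28 beta subunit, was at 197, 186 and 183 FPKM in WT and at 238, 259.6 and 253 FPKM in ITD LSK (0.40 ± 0.10, SE, limma adjusted p = 0.0183). No WT library reached an ITD library in any of the 3 genes. Psmb10 was at 120.4, 129 and 117 FPKM in WT and 110.2, 120.1 and 128 FPKM in ITD LSK, which overlapped (-0.03, limma adjusted p = 0.801), and Psme1 had 0.11 (limma adjusted p = 0.31). With sex as a covariate none of the 3 immunoproteasome calls remained and 4 of all members were called. Psmb9 ended in 6 and Psme2 in 5 of 13 alternatives. In the fit of the 6 libraries alone 9 members rose and 0 fell, with median-ratio size factors 8 and 0, and with quantile normalization 5 and 0. Leaving out any 1 of the 6 libraries gave 5 to 9 member calls, with the 5 without ITD LSK replicate 3.

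Levels of marker lists differed between these groups. Dendritic and monocyte markers summed to 242 to 602 FPKM in WT and 739 to 4375 FPKM in ITD LSK, with 7 of 12 tested called higher and 0 lower. B cell markers were lower for 10 of 11 and summed to 159.6 to 317 FPKM in WT and 41.8 to 92.0 FPKM in ITD LSK. Erythroid markers were lower for 8 of 9 and higher for 1, late neutrophil markers were lower for 8 of 9, T and NK markers were higher for 1 of 4, and the defining LSK genes were lower for 3 of 8. Cell cycle genes summed to 1302 to 1495 FPKM in WT and 1710 to 1769 FPKM in ITD LSK, with 5 of 12 called higher and 0 lower. Class I processing genes were higher for 4 of 11, Tap1 among them at 0.46. Interferon response genes were higher for 0 and lower for 2 of 16. The part of these lists in the rise was not tested.

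**Figure D4:**
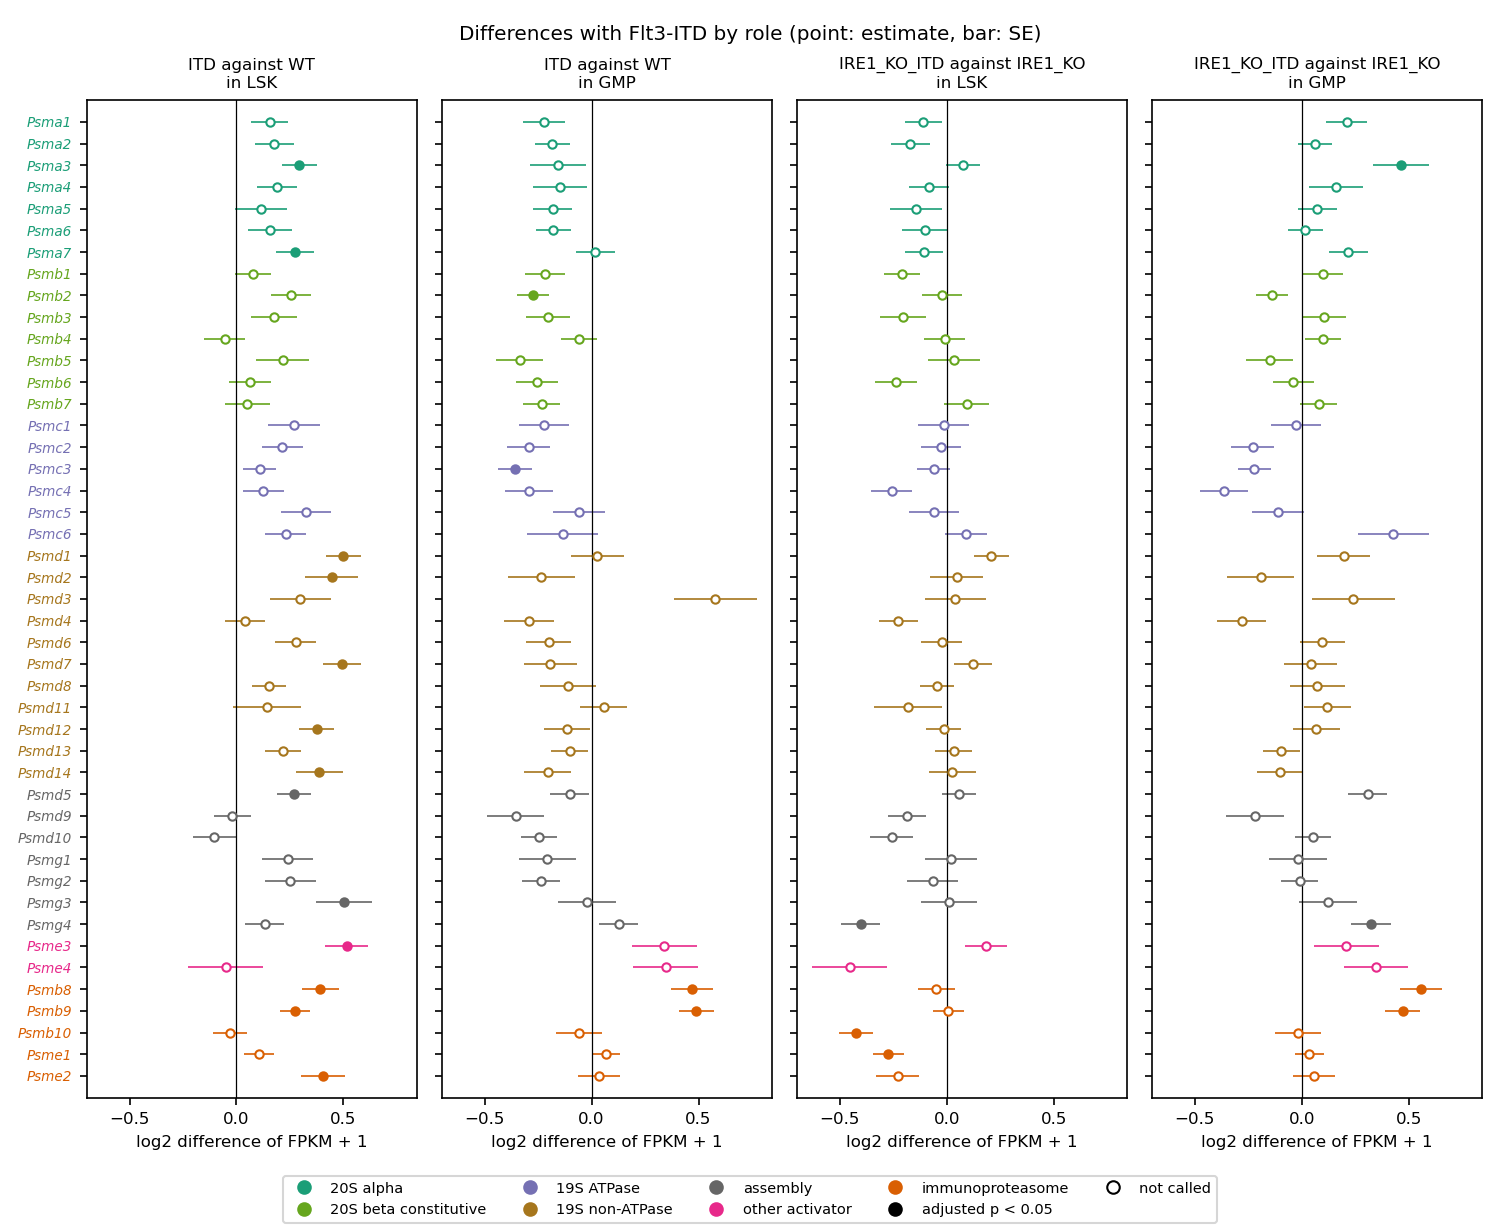
Difference in log2(FPKM + 1) with Flt3-ITD for each member with a role, in the comparisons of LSK and of GMP with and without the IRE1_KO label, ordered and coloured by role, with bars of 1 SE and filled points at adjusted p below 0.05. Constitutive points lie right of 0 in ITD against WT LSK (30 of 31) and left of it in ITD against WT GMP (27 of 31), and Psmb8 and Psmb9 lie right of 0 with filled points in both GMP panels.

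The difference with Flt3-ITD was tested between the populations in 1 fit of all 24 libraries. For 14 of 48 members the GMP difference was lower than the LSK difference and for 0 it was higher, where 6.45% of all genes were called higher and 7.1% lower. Of the 14, 11 were constitutive subunits, whose median was -0.38 against 0.00 over all genes. The highest constitutive value was that of Psmd3 (0.28, not called). Psmd7 differed by -0.69 ± 0.15, Psmb2 by -0.53 ± 0.11, Psmd14 by -0.59 ± 0.15 and Psmc3 by -0.47 ± 0.10 (SE, limma adjusted p = 0.00802, 0.00654, 0.0179 and 0.00698), and these 4 held in all 19 alternatives. Psmb5, the constitutive beta5 subunit, was at 282, 267 and 218 FPKM in WT LSK and 318, 281 and 287 FPKM in ITD LSK. In GMP Psmb5 was at 330.1, 307 and 347 FPKM in WT and 287, 239 and 254 FPKM in ITD. It thus stood higher with Flt3-ITD in LSK, with overlap, and lower in GMP, without overlap. With the IRE1_KO label Psmb5 was at 278, 277 and 213 FPKM without and 272, 255 and 254 FPKM with Flt3-ITD in LSK, and at 319, 322 and 266 FPKM and 256, 257 and 304 FPKM in GMP. For Psmb5 the difference of differences was -0.55 ± 0.17 (SE, limma adjusted p = 0.0347), which ended in 11 of 19 alternatives.

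The immunoproteasome genes did not pass this test in either direction, with 1 higher and 1 lower at an unadjusted p below 0.05. Psmb8 had 0.08 ± 0.13 (SE, limma adjusted p = 0.714) and Psmb9 0.22 ± 0.10 (SE, limma adjusted p = 0.145). Among cell cycle genes 5 of 12 were lower in this test, and they summed to 1706 to 1796 FPKM in WT GMP and 1498 to 1589 FPKM in ITD GMP. Their part was not tested. The count of 14 was 4 without WT LSK replicate 2, 6 without WT GMP replicate 2, 7 without WT GMP replicate 3, 7 without ITD LSK replicate 3, 8 without ITD GMP replicate 3, 8 without ITD LSK replicate 1 and 6 in the fit of the 12 WT and ITD libraries alone. It was 23 with the replicate block, all lower, 8 without the filter on low values, and 7 with quantile normalization, of which 1 was higher. That block joined LSK and GMP libraries by number, and those of IRE1_KO_ITD replicates 2 and 3 were of unlike sex.

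Population differences within the other genotypes are given beside those in WT. In ITD, GMP against LSK gave 1 member higher and 12 lower, where 13.7% of all genes were called higher and 26.8% lower. Psme4, the PA200 activator, was the 1 that rose (0.56), and 0 of 31 constitutive subunits rose and 5 fell. No test here sets the 12 members or the 5 constitutive subunits apart from the 26.8% of all genes. Psmb6 had the lowest constitutive value (-0.32 ± 0.10, SE, limma adjusted p = 0.0115) and Psma7 the highest (0.19, not called). Psmd12 (-0.30) and the chaperones Psmd9 (-0.41) and Psmg2 (-0.36) also fell. With median-ratio size factors 2 members rose and 2 fell, in the fit of the 6 ITD libraries alone 0 rose and 2 fell, and the constitutive median changed sign with the former (from -0.12 to 0.05). Without ITD LSK replicate 1 the count was 6 members and without ITD GMP replicate 2 it was 8. Psmb9 (-0.45 ± 0.07, SE, limma adjusted p = 5.87e-05) and Psme1 (-0.54 ± 0.06, SE, limma adjusted p = 1.43e-06) fell as in WT, in all 13 alternatives. Psmb8 fell too (-0.36 ± 0.09, SE, limma adjusted p = 0.00386), but not with median-ratio size factors or in the fit of the 6 libraries alone (adjusted p = 0.0743 to 0.0803).

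In IRE1_KO_ITD, GMP against LSK gave 18 members higher and 2 lower, where 14.2% of all genes were called higher and 26.5% lower. All 7 alpha subunits rose, with a median of 0.46 and with Psma7 at 0.60 ± 0.08 (SE, limma adjusted p = 1.44e-05), Psma3 at 0.60 and Psma2 at 0.46. Psmb3 rose by 0.60 as well. Of the cap, 1 of 6 ATPases (Psmc6, 0.68) and 2 of 11 non-ATPase subunits rose, and Psmd3 had the lowest constitutive value (-0.21, not called). Psmb9 fell by 0.22 ± 0.07 on the log2 scale (SE, limma adjusted p = 0.0147) and Psme1 fell by 0.17 ± 0.06 (SE, limma adjusted p = 0.0283). Psmb9 ended in 4 and Psme1 in 6 of 13 alternatives, both of them with median-ratio size factors, in the fit of the 6 libraries alone and without IRE1_KO_ITD LSK replicate 2 (adjusted p = 0.0666 to 0.639 for Psmb9 and 0.0821 to 0.938 for Psme1). Psmb9 ended as well without IRE1_KO_ITD GMP replicate 3, and Psme1 without IRE1_KO_ITD GMP replicate 1 or 2 or IRE1_KO_ITD LSK replicate 1. Psme2 rose by 0.28 (limma adjusted p = 0.0315), a call that ended in 6 of 13 alternatives. Psmb8 had 0.03 (limma adjusted p = 0.816) and turned to -0.33 (adjusted p = 0.0125) with quantile normalization. Under that normalization 8 members rose and 5 fell, and with median-ratio size factors 29 rose and 0 fell.

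The IRE1_KO label without Flt3-ITD was compared with WT in each population. In GMP, 0 members rose and 0 fell against WT, where 0.0267% of all genes were called higher and 0.507% lower, and at an unadjusted p below 0.05 there were 0 higher and 1 lower. Psmb8 was at 299.8, 344 and 285 FPKM in IRE1_KO GMP, around the 328 to 331 FPKM of WT. Constitutive values ran from -0.23 (Psma3) to 0.35 (Psmd3). In LSK, 5 members rose and 2 fell against WT, where 21% of all genes were called higher and 2.72% lower, and no test here sets the members apart from genes at large. Psmd2 had 0.55 ± 0.12 (SE, limma adjusted p = 0.00785), in all 13 alternatives, and Psmd3, a lid subunit, had 0.57 ± 0.14 (SE, limma adjusted p = 0.0136). Psme3 rose by 0.40 and the chaperone Psmd5, which helps to build the cap base, by 0.35. The 2 that fell, Psmb7 (-0.38) and Psmb4 (-0.34), were constitutive beta subunits. Psmb8 was at 438, 517 and 431 FPKM, Psmb9 at 247, 239.6 and 233 FPKM, Psme1 at 428, 425 and 389 FPKM and Psme2 at 209, 241 and 176 FPKM in IRE1_KO LSK. No immunoproteasome gene was called in LSK, with 0 higher and 0 lower at an unadjusted p below 0.05. These are the libraries with the 1 ng tag. The median over all genes moved from 0.14 to -0.08 with quantile normalization and to -0.01 with median-ratio size factors, where members called were 1 higher and 3 lower, and 1 higher and 4 lower. The count of 7 was 2 without IRE1_KO LSK replicate 2, 4 without IRE1_KO LSK replicate 3 and 4 without WT LSK replicate 2.

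Within the IRE1_KO label 3 members were lower with Flt3-ITD in LSK. The IRE1_KO libraries here are those with the 1 ng tag, so Flt3-ITD and the tag cannot be told apart, and no alternative removes the tag. In ITD and WT LSK, without the tag, group means were 119 and 122 FPKM for Psmb10. They were 119 and 109 FPKM for Psmg4, and 459 and 427 FPKM for Psme1. In IRE1_KO_ITD against IRE1_KO, 0 members rose and 3 fell, where 11.7% of all genes were called higher and 19.6% lower. That split depended on scaling, with 4 higher and 2 lower under quantile normalization and 1 higher and 3 lower with median-ratio size factors. Psmb10 was at 123, 134 and 131 FPKM in IRE1_KO LSK and at 103, 92.8 and 93.2 FPKM in IRE1_KO_ITD LSK (-0.42 ± 0.08, SE, limma adjusted p = 0.00239). Psmg4 was at 109, 116 and 95.1 FPKM in IRE1_KO and at 73.5, 87.7 and 80.4 FPKM in IRE1_KO_ITD LSK (-0.40 ± 0.09, SE, limma adjusted p = 0.00704). No library overlapped for either gene, and both calls held in all 13 alternatives. Psme1 differed by -0.27 ± 0.07 (SE, limma adjusted p = 0.0141), and ended with quantile normalization, in the fit of the 6 libraries alone and without IRE1_KO_ITD LSK replicate 3 (adjusted p = 0.0584 to 0.262). Psmb8 and Psmb9 had -0.05 (limma adjusted p = 0.704) and 0.01 (limma adjusted p = 0.944). Constitutive values ran from -0.26 (Psmc4) to 0.21 (Psmd1). Constitutive subunits were called in 0 cases, with 1 higher and 4 lower at an unadjusted p below 0.05. The count of 3 was 13 without IRE1_KO LSK replicate 3. Interferon response genes fell for 15 of 16 here, from 507 to 655 FPKM summed to 172 to 179 FPKM. B cell markers fell for 11 of 11, from 226 to 273 FPKM to 30.7 to 36.7 FPKM, and late neutrophil markers for 9 of 9, from 4532 to 11451 FPKM to 109 to 380.4 FPKM. Erythroid markers fell for 8 of 9 and rose for 1, dendritic and monocyte markers fell for 2 of 12, and the defining LSK genes fell for 4 of 8. The part of these lists in the fall of Psmb10, Psmg4 and Psme1 was not tested.

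The difference of the 2 Flt3-ITD effects in LSK passed for 4 members, all lower with the IRE1_KO label, where 1.36% of all genes were called higher and 5.58% lower. Psme2 had -0.63 ± 0.14 (SE, limma adjusted p = 0.0281), Psme2b -0.60, Psmg4 -0.53 and Psme1 -0.38. Psme2b is the retrocopy of Psme2, and shared reads mean that their calls may not be separate results. Constitutive values ran from -0.40 (Psmd2) to 0.05 (Psmb4), with 0 called. None of the 4 calls held in all 18 alternatives, and those of Psmg4 and Psme1 ended with the replicate block among others. The count was 12 without IRE1_KO LSK replicate 3, 7 without ITD LSK replicate 1, 1 without IRE1_KO LSK replicate 2 or IRE1_KO_ITD LSK replicate 2, and 0 without IRE1_KO LSK replicate 1, IRE1_KO_ITD LSK replicate 1 or 3, ITD LSK replicate 2 or 3, or WT LSK replicate 2 or 3. The label and the 1 ng tag cannot be told apart here.

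The groups with Flt3-ITD do not involve the tagged libraries. Between them, LSK cells with the IRE1_KO label held less transcript of all 5 immunoproteasome genes and of 10 of 31 constitutive subunits. None of these calls held with quantile normalization. FPKM over all genes also summed lower, to 510361 to 514280 in IRE1_KO_ITD LSK against 566084 to 571899 in ITD LSK. As a share of all FPKM, the members together held 1.38% to 1.40% against 1.47% to 1.57%. In IRE1_KO_ITD against ITD LSK 0 members rose and 18 fell, where 13.3% of all genes were called higher and 6.96% lower. All 5 immunoproteasome genes were among the 18, with 4 of 7 alpha subunits, 5 of 7 constitutive beta subunits, 0 of 6 ATPases and 1 of 11 non-ATPase subunits. The constitutive median was -0.23 against 0.06 over all genes. Psme1 was at 445, 467 and 465 FPKM in ITD LSK and at 347, 349 and 332 FPKM in IRE1_KO_ITD LSK. Every IRE1_KO_ITD library was lower (-0.42 ± 0.07, SE, limma adjusted p = 0.00351). Psme2 was at 176, 183 and 170.0 FPKM in IRE1_KO_ITD LSK, below its ITD range, with -0.50 ± 0.10 (SE, limma adjusted p = 0.00788). Psmb8 was at 441, 432 and 464 FPKM in IRE1_KO_ITD LSK, with -0.40 ± 0.09 (SE, limma adjusted p = 0.0105), and Psmb9 was at 227, 253 and 245 FPKM, with -0.40 ± 0.07 (SE, limma adjusted p = 0.00403). Psmb10 had -0.31 ± 0.08 (SE, limma adjusted p = 0.0211). Psmg4 showed the largest change, from 112, 119 and 126 FPKM to 73.5, 87.7 and 80.4 FPKM (-0.56 ± 0.09, SE, limma adjusted p = 0.00321). Psma2 fell by 0.39, Psma7 by 0.33 and Psmb1 by 0.32 on the log2 scale, and Psmd3 had the highest constitutive value (0.31, not called). These IRE1_KO_ITD levels of Psmb8 and Psmb9 overlapped those of WT LSK.

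Other lists moved with this comparison. Interferon response genes fell for 13 of 16, from 307 to 860 FPKM summed in ITD to 172 to 179 FPKM, and dendritic and monocyte markers fell for 10 of 12, from 739 to 4375 FPKM to 174 to 344 FPKM, with Siglech at 0 in all 3 IRE1_KO_ITD LSK libraries. Late neutrophil markers fell for 4 of 9. Class I processing genes were higher for 0 and lower for 1 of 11, and Tap1 had -0.25 (limma adjusted p = 0.184). The part of these genes in the fall was not tested. With quantile normalization none of the 5 immunoproteasome genes was called (adjusted p = 0.0753 to 0.652 for Psme1, Psmb9, Psme2 and Psmb8) and 4 members fell in all. In the fit of the 6 libraries alone 0 rose and 20 fell. With sex as a covariate 8 members fell, and leaving out any 1 of the 6 libraries gave 6 to 9 calls, the 6 without IRE1_KO_ITD LSK replicate 3. Psmg4 and Psme2b were the 2 called in every alternative.

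In GMP the same contrast gave 0 members higher and 0 lower, where 0.916% of all genes were called higher and 0.916% lower. At an unadjusted p below 0.05 there were 8 higher and 0 lower, and without ITD GMP replicate 1 there were 2 calls, both higher. Psmb8 had -0.01 (limma adjusted p = 0.981) and Psmb9 -0.18 (limma adjusted p = 0.277). Constitutive values ran from -0.08 (Psmb2) to 0.46 (Psmc6). Dendritic and monocyte markers were lower for 6 of 10 in these libraries.

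The balance of the whole set, the mean log2 level of the 5 immunoproteasome genes minus that of the 31 constitutive subunits, is given for each group with no test. It was 0.82 ± 0.05 in WT, 0.83 ± 0.14 in ITD, 0.76 ± 0.06 in IRE1_KO and 0.62 ± 0.02 in IRE1_KO_ITD LSK (SD, n = 3). In GMP it was 0.26 ± 0.03 in WT, 0.61 ± 0.12 in ITD, 0.22 ± 0.02 in IRE1_KO and 0.41 ± 0.03 in IRE1_KO_ITD (SD, n = 3). The GMP libraries with Flt3-ITD were all above those without it. Summed over genes, the immunoproteasome stood at 1343 ± 26.7 FPKM in ITD GMP against 1129 ± 17.9 FPKM in WT GMP, and the constitutive subunits at 5760 ± 326 FPKM against 6484 ± 17.2 FPKM (SD, n = 3).

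**Figure D5:**
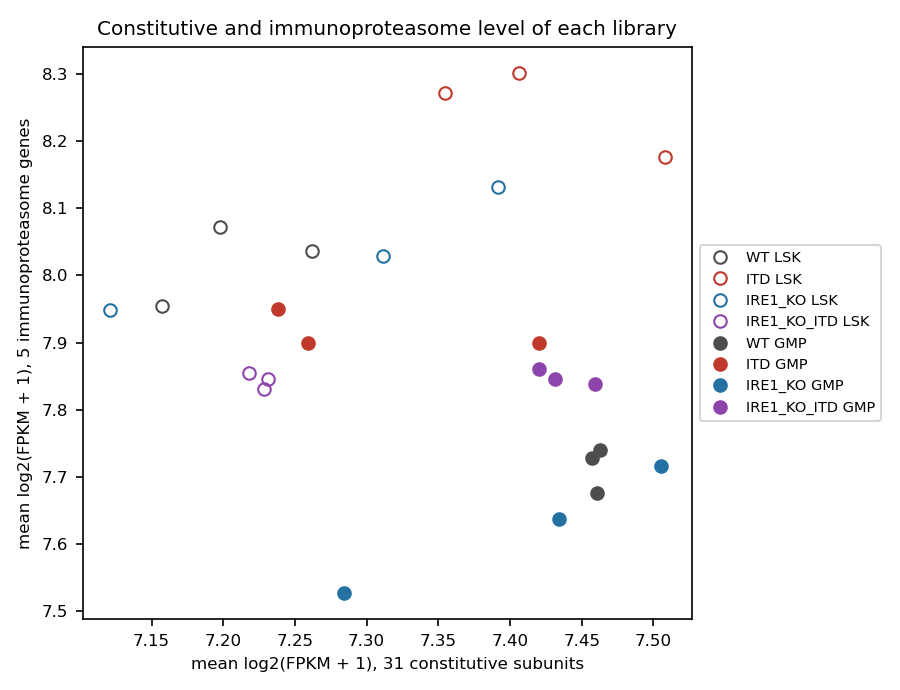
Mean log2(FPKM + 1) of the 31 constitutive subunits (x axis) and of the 5 immunoproteasome genes (y axis) in each of the 24 libraries, open points for LSK and filled points for GMP. The 3 ITD LSK libraries lie highest, and among GMP libraries the 6 with Flt3-ITD lie above the 6 without it.

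Genes that supply or serve the proteasome were followed as a list of 31 entries, of which 30 were tested. Its counts are read against the shares of all genes called, and no test sets the list apart from them. In ITD against WT LSK 6 rose and 0 fell, where 14.9% of all genes rose and 7.27% fell, led by Usp14, a deubiquitinase of the cap (0.60 ± 0.11, SE, limma adjusted p = 0.00464), AI314180, the adaptor Ecm29 (0.80), and Ubqln4, a shuttle for ubiquitinated proteins (0.59). In ITD against WT GMP 1 rose, Nfe2l1, the transcription factor that raises proteasome genes when proteasomes fail (0.50 ± 0.11, SE, limma adjusted p = 0.021), and 1 fell, Ufd1l, a partner of the unfoldase p97 (-0.37), where 7.37% of all genes rose and 3.32% fell. In IRE1_KO_ITD against IRE1_KO GMP 1 rose, Ngly1, the glycanase that processes Nfe2l1 (0.52), and 0 fell, where 8.47% of all genes rose and 4.5% fell. In IRE1_KO_ITD against ITD LSK 7 rose and 4 fell, where 13.3% of all genes rose and 6.96% fell. Pomp, the chaperone of core maturation (-0.43 ± 0.09, SE, limma adjusted p = 0.00809), and Shfm1, a small lid subunit (-0.46 ± 0.09, SE, limma adjusted p = 0.00708), were among the 4, with Rps27a (-0.50). The 3 with the smallest p that rose were Nploc4 (1.14), Ddi2 (1.43) and Ube3a (0.65).

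Comparisons with the tagged IRE1_KO LSK libraries called this list as follows. In IRE1_KO against WT LSK 12 rose and 0 fell, where 21% of all genes rose and 2.72% fell, with Akirin2, which carries proteasomes into the nucleus, at 2.22 ± 0.16, Ubqln1 at 2.39 ± 0.22 and Nploc4 at 1.75 ± 0.16 (SE, limma adjusted p = 1.61e-05, 2.58e-05 and 2.02e-05). In IRE1_KO_ITD against IRE1_KO LSK 2 rose (AI314180 and Ubqln4) and 7 fell, where 11.7% of all genes rose and 19.6% fell, with Akirin2 at -2.38, Zfand5 at -1.80 and Ubqln1 at -1.24. The difference of the 2 Flt3-ITD effects in LSK was lower for 6, where 5.58% of all genes were lower, with Akirin2 at -1.98. In GMP, IRE1_KO against WT, IRE1_KO_ITD against ITD and the difference of the Flt3-ITD effects called 0 of 30. Between GMP and LSK, 9 rose and 6 fell in WT, where 19% of all genes rose and 31.3% fell, with Shfm1 at 1.15, Ube3a at 0.73 and Usp14 at 0.60. There were 6 and 5 in ITD, where 13.7% of all genes rose and 26.8% fell, with Ube3a (0.57) and Ngly1 (-0.48). There were 4 and 3 in IRE1_KO_ITD, where 14.2% of all genes rose and 26.5% fell, with Shfm1 (1.22), Pomp (0.53) and Ngly1 (-0.58). The effect of Flt3-ITD was higher in GMP than in LSK for 2 (Ubqln2 and Zfand5) and lower for 4, where 6.45% of all genes were higher and 7.1% lower, with Usp14 at -0.76.

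Members varied among themselves in how far they ranged over the 8 groups. The range of group means on the log2 scale was widest for Psmb9 (1.097) and Psmb8 (0.92), then Psmd3 (0.80) and Psmc6 (0.77), against a median of 0.42 over the constitutive subunits and 0.25 for Psmd8. Correlations are given as a description over 24 libraries that differ in genotype and population. Psmb8 and Psmb9 had a Pearson r of 0.906, Psmb9 and Psme1 0.820, and Psmb8 and Psme1 0.683. Psme2 had 0.119 to 0.220 with the other immunoproteasome genes. Pairs of constitutive subunits had a median r of 0.453 over 465 pairs, from -0.704 to 0.944, and pairs of immunoproteasome genes one of 0.363. Psmb8 with Psmb9 was the closest pair of the 5.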

How the data were processed

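The authors deposited an FPKM value for every gene symbol in each library. Per the submitters' processing notes, the aligner was STAR, the genome build mm10 and the quantifier Cufflinks, with versions not given in the sources used here. SMART-Seq v4 and Nextera XT stand in the labels' protocol, but TruSeq Stranded in the series text, a conflict left unsettled. Total reads are not given; the relative depth in the report was read from ratios of values below 0.3 FPKM.

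Groups came from the sample labels. Differences were fitted with limma 3.58.1 (R 4.3.3, trend on) to log2(FPKM + 1) on genes with 3 or more of the fitted libraries at 1 FPKM or above, with Benjamini-Hochberg adjustment over all tested genes and a threshold of 0.05. Comparisons within a population used its 12 libraries (11955 genes in LSK, 11249 in GMP), and those between populations all 24 (12348 genes). All 48 members were tested in each of 14 comparisons. Median-ratio and quantile scaling, another pseudocount, no filter, a replicate block, sex as a covariate, leaving out each library and fitting only the libraries compared were the alternatives. The members, gene lists and tests were chosen with earlier results of these data known. The lists were pathway genes (ubiquitin and proteasome partners), class I processing genes, interferon response and cell cycle genes, and markers of LSK, GMP, B cells, dendritic cells and monocytes, T and NK cells, erythroid cells and late neutrophils; Trac and Paaf1 did not match a symbol. Immunoproteasome genes and their constitutive partners are named, but not each of them in every comparison. Of the other called members, those with the lowest adjusted p are named. Others were named after their values were seen, where a count of 5 or fewer is spelled out. The fit was run on simulated data with independent noise for each gene and library, and the outcome is not reported here. Promoters and positions are RefSeq's on GRCm38.p6. Python 3.11.15 with pandas 2.3.3 made the tables.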

Additional observations from a re-analysis of the deposited data

Results flagged for a closer look

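For 18 results the difference between 2 groups' effects was itself called (limma, adjusted p below 0.05). The Flt3-ITD effect in LSK was lower with the IRE1_KO label than without it for Psme2 (-0.63), Psme2b (-0.60), Psmg4 (-0.53) and Psme1 (-0.38). Psme2 and its retrocopy Psme2b may share reads, so their results may not be separate. The Flt3-ITD effect was lower in GMP than in LSK for the cap subunits Psmd7 (-0.69), Psmd2 (-0.68), Psmd14 (-0.59), Psmd12 (-0.49), Psmd6 (-0.48) and Psmd1 (-0.47) and the ATPases Psmc2 (-0.51) and Psmc3 (-0.47). The same held for the core subunits Psmb5 (-0.55), Psmb2 (-0.53) and Psma2 (-0.36), the chaperones Psmg2 (-0.49) and Psmd5 (-0.37), and Psmc3ip (-0.57). The Psmd5 call ended with the replicate block.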

How the results depend on the processing

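Over all members, comparisons and alternatives there were 9504 values, of which 8846 kept direction and side of the threshold, 507 lost a call, 147 gained one and 4 reversed (Psma6, Psmb2 and Psmb8 for GMP against LSK in IRE1_KO_ITD and Psmd9 for IRE1_KO against WT in LSK, all with quantile normalization). Counts of members called moved by over 1.5 times as follows, and the cause was not tested. With quantile normalization they were 5 for ITD against WT in LSK, 6 (4 higher, 2 lower) for IRE1_KO_ITD against IRE1_KO in LSK, 4 for IRE1_KO against WT in LSK, 4 for IRE1_KO_ITD against ITD in LSK, 13 for GMP against LSK in IRE1_KO_ITD and 7 for the ITD effect in GMP minus LSK. With median-ratio size factors they were 8 for ITD against WT in LSK, 17 (2 higher, 15 lower) in GMP, 7 (2 higher, 5 lower) for IRE1_KO_ITD against IRE1_KO in GMP and 4 for GMP against LSK in ITD. In the fit of only the libraries compared they were 9 and 1 for ITD against WT in LSK and GMP, 3 for IRE1_KO against WT in LSK, 2 for GMP against LSK in ITD and 6 for the ITD effect in GMP minus LSK. With sex as a covariate they were 4 and 1 for ITD against WT in LSK and GMP, 2 for IRE1_KO_ITD against IRE1_KO in GMP and 8 for IRE1_KO_ITD against ITD in LSK. Without the filter on low values they were 2 for IRE1_KO_ITD against IRE1_KO in GMP and 8 for the ITD effect in GMP minus LSK. Other splits that scaling moved were 10 higher and 7 lower (quantile) and 33 and 3 (median-ratio) for GMP against LSK in WT, 29 and 0 (median-ratio) in IRE1_KO_ITD, and 3 and 3 (quantile) for IRE1_KO_ITD against IRE1_KO in GMP. The median of all genes moved by -0.215 to 0.161 with quantile normalization and by -0.150 to 0.147 with median-ratio size factors.

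Leaving out each library in turn gave 5 to 9 calls for ITD against WT in LSK and 1 to 6 in GMP, 2 to 13 for IRE1_KO_ITD against IRE1_KO in LSK and 2 to 4 in GMP, 2 to 7 for IRE1_KO against WT in LSK and 0 to 0 in GMP, and 6 to 9 for IRE1_KO_ITD against ITD in LSK and 0 to 2 in GMP. The range was 0 to 12 for the difference of the Flt3-ITD effects in LSK and 0 to 0 in GMP, 18 to 23, 6 to 14 and 15 to 17 for GMP against LSK in WT, ITD and IRE1_KO_ITD, and 4 to 20 for the ITD effect in GMP minus LSK.

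The replicate block gave 23 calls for the ITD effect in GMP minus LSK and moved no other count by over 1.5 times. Within a population it joined same-numbered libraries of different genotypes, whose deviations correlated at -0.338 to 0.103 (median 0.0117). A call that ended with the block there thus tells nothing of pairing. Replicate numbers are shared between groups, but same-numbered libraries of a genotype correlated in their deviations at -0.1 to 0.236 (median 0.0678), and 14 of 24 libraries matched best with their own number, which does not pair them over all genotypes under the rule used. IRE1_KO_ITD replicates 2 and 3 read as male and female in LSK, but as female and male in GMP. Those same-numbered libraries are thus not of 1 animal, and the block over both populations joined them. In WT and in IRE1_KO the order of the sexes by number was the same in LSK and GMP. Whether those libraries are paired was not tested further. The 3 ITD pairs of LSK and GMP alone had 0.198, 0.105 and 0.147, all above 0.1, and the block gave 15 calls for GMP against LSK in ITD, against 13 without it. No depth in reads is known for these FPKM values, and 3 libraries a group limit what can be called.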

Other observations

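As a description over 24 libraries, the genes outside the families whose levels followed the mean of the 5 immunoproteasome genes most closely were Traf1 (Pearson r 0.882), Gstp1 (0.879), Gstp2 (0.878), Phf11c (0.867) and H2-DMa (0.864), a chaperone of class II loading. Those most like the mean of the 31 constitutive subunits were Cct8 (0.918), a subunit of the chaperonin that folds actin and tubulin, Nhp2 (0.917), Sdhd (0.904), Timm23 (0.904) and Atp5o (0.902), the last 3 mitochondrial. Libraries of a group share population and genotype, and the groups differ in them, so these values carry no p.

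Of the members outside the immunoproteasome group, Psmg4 had an r of 0.754 with the immunoproteasome mean, and Psmd14 had 0.915 with the mean of the constitutive subunits, of which it is part.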
